A study of Bos indicus and Bos indicus x Bos taurus and Bos taurus with 6 samples.

Results

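The cytosolic ribosomal proteins were followed in whole blood RNA-seq libraries of cattle. They were taken by gene symbol: every gene of the count table named RPL or RPS with a number and at most 1 letter, together with RPLP0, RPLP1, RPLP2 and RPSA. The rule found 79 of 21698 genes, 47 of the large subunit and 32 of the small subunit. After a filter on low counts 78 of the 79 could be tested, among 13455 genes, and RPL10L was left out because it had no count in any library. The rule misses FAU, whose ribosomal protein is made as a fusion, and RPL41 was not analysed here.

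A ribosome is built from ribosomal RNA and one copy of nearly every ribosomal protein, and it reads mRNA on the small subunit and joins amino acids on the large one. The mRNAs of these proteins begin with a run of pyrimidines, the terminal oligopyrimidine (TOP) motif, through which the mTOR pathway sets their translation and stability as a group together with those of elongation factors. In blood, lymphocytes, young platelets and young red cells carry them in abundance, while mature granulocytes hold little RNA of any kind.

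The study set 3 breeds side by side under what the sample titles call heat stress. The labels class Kedah-Kelantan (Bos indicus) as heat-tolerant, Brangus (a composite) as intermediate and Holstein Friesian (Bos taurus) as heat-vulnerable. All animals were healthy adult cows, neither pregnant nor lactating, aged 4.5 ± 1.2 years on average, weighing 450 ± 15 kg, and kept on 1 university farm in Malaysia. Jugular blood of each breed was drawn at a labelled temperature-humidity index of 44.68, the same for all groups. The labels give no scale for this index, so the size of the heat load cannot be read from it, and no library from other conditions was analysed here. The design text gives 4 animals per breed, and 2 libraries per breed, labelled biological replicates, were analysed here.

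Library totals were 25275377 to 28668857 counts. All 12 T cell markers on a list of blood cell genes had counts in every library. The red cell list summed to 104 to 648 CPM (counts scaled to a common library size), with HBA1 and CA1 at 0 in all 6 libraries. The 2 Holstein Friesian libraries stood apart from each other. Of 12368 genes with a count in every library, 29.9% differed more than 2-fold between them, against 2.44% between the Kedah-Kelantan and 9.73% between the Brangus libraries. B cell markers summed to 237 CPM in Holstein Friesian replicate 2 and 3141 CPM in replicate 1, monocyte markers to 7004 and 425.5 CPM, and neutrophil markers to 5171 and 377.5 CPM. Counts and medians against Holstein Friesian are therefore given with and without each of these libraries, as are the single genes whose values moved most.

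Ribosomal protein mRNA took the largest share of the reads in Brangus. The 79 genes held 7.51% and 8.26% of all counts in the Kedah-Kelantan libraries, 15.9% and 16.1% in those of Brangus, and 12.5% and 6.47% in those of Holstein Friesian. The breed means were 7.89 ± 0.529%, 16.0 ± 0.155% and 9.46 ± 4.23% (SD, n = 2 each). The Kedah-Kelantan and Brangus libraries did not overlap, while 1 Holstein Friesian library lay between them and the other below both Kedah-Kelantan libraries. In bulk blood, fewer cells of a type and less RNA per cell cannot be told apart. The median gene of the family, among the 77 with a count in every library, stood at 764 and 852 CPM in Kedah-Kelantan, 2032 and 2131 CPM in Brangus, and 1466 and 779 CPM in Holstein Friesian. CPM here are scaled by library size after trimmed-mean (TMM) normalization.

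**Figure D1:**
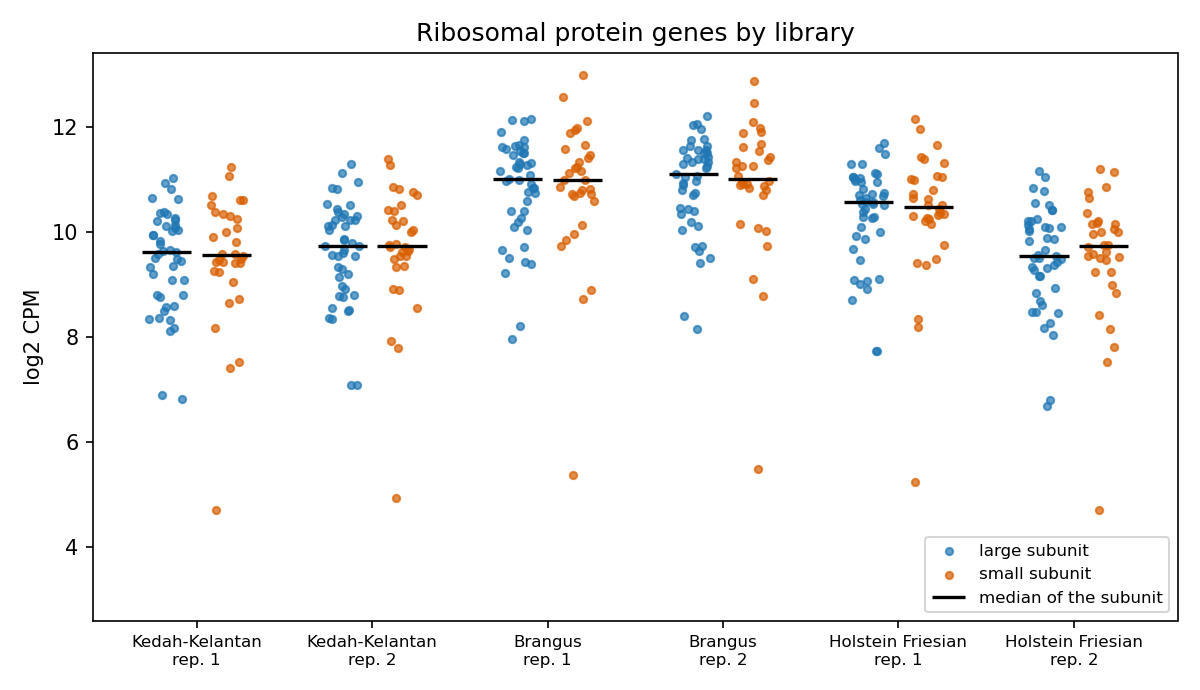
The log2 CPM of the 77 ribosomal protein genes with a count in every library, 1 point per gene, is plotted by library, with large subunit genes in blue, small subunit genes in orange and black bars at the median of each subunit. The 2 Brangus libraries sit highest, Holstein Friesian replicate 1 lies below them, and Holstein Friesian replicate 2 lies at the level of both Kedah-Kelantan libraries.

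On the length-scaled FPKM scale (fragments per kilobase of gene, scaled to the library total), which allows levels of different genes to be compared, the family was led by RPLP1, an acidic protein of the stalk that recruits elongation factors. RPLP1 had 3410.2 and 4213 FPKM in Kedah-Kelantan, 8021 and 7538 FPKM in Brangus, and 5798 and 3198 FPKM in Holstein Friesian. RPS3A and RPL23 were also near the top, with means over the libraries of 4987 and 4138 FPKM. At the other end RPS27L averaged 73.7 FPKM, apart from RPL3L and RPL10L with hardly any counts or none. RPL38, a small protein needed in mouse embryos for translation of Hox mRNAs, averaged 432 FPKM and RPL15 averaged 463 FPKM. RPL15 had the longest gene length of the family, 2.31 kb. On the CPM scale it lay near the median member in Kedah-Kelantan and Holstein Friesian. In the 6 libraries, 52 to 67 of the 100 genes with the highest FPKM were members of the family: 61 and 60 in Kedah-Kelantan, 66 and 67 in Brangus, 65 and 52 in Holstein Friesian.

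Kedah-Kelantan against Brangus was the comparison with the largest median difference. All 78 tested genes were lower in Kedah-Kelantan in the fitted values, with a median log2 fold change of -1.27, where the median of all 13455 tested genes was 0.02. For 77 of the 78 both Kedah-Kelantan libraries lay below both Brangus libraries, which 30.7% of all tested genes also did, and the exception was RPL3L, a gene with hardly any counts. The changes of the other 77 lay between -2.40 for RPL23A and -0.61 for RPS27L.

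Translation landmarks show the size of the gap. RPLP0, the base of the stalk, had 2091 and 2511 CPM in Kedah-Kelantan and 4429 and 4188 CPM in Brangus (log2 fold change -0.90, SE 0.23). RPS6, the small subunit protein that S6 kinase phosphorylates downstream of mTOR, had 1213 and 1194 CPM in Kedah-Kelantan and 2718 and 2758 CPM in Brangus (-1.19, SE 0.31). RPS19, the gene most often mutated in human Diamond-Blackfan anaemia, had 701 and 832 CPM in Kedah-Kelantan and 2015 and 1988 CPM in Brangus (-1.39, SE 0.24). At all 3 genes both Kedah-Kelantan libraries lay below both Brangus libraries, as they did for 30.7% of all tested genes. RPL5 and RPL11, which as a pair bind MDM2 when ribosome assembly fails, were at -1.15 (SE 0.33) and -1.23 (SE 0.33). The other stalk proteins RPLP1 and RPLP2 were at -1.29 (SE 0.30) and -1.07 (SE 0.24).

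The smallest unadjusted p-values belonged to genes of both subunits. RPL3, near the peptidyl transferase centre, had 903 and 1044 CPM in Kedah-Kelantan and 2797 and 2723 CPM in Brangus (-1.50, SE 0.20), the smallest p of the family, and RPL23A, RPSA and RPS19 came next. RPL37A and RPL35A followed RPL23A in size, at -1.78 (SE 0.46) and -1.76 (SE 0.41). RPL37A had 647 and 746 CPM in Kedah-Kelantan, against 2285 and 2500.1 CPM in Brangus. RPSA, the small subunit protein also known as the laminin receptor, had 1636 and 1809 CPM in Kedah-Kelantan and 3761 and 3759 CPM in Brangus (-1.13, SE 0.19). The smallest differences besides RPS27L were those of RPL15, at -0.76 (SE 0.32), and RPL10, a late-joining large subunit protein encoded on the X chromosome, at -0.77 (SE 0.19).

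Whether these differences passed a test depended on the other libraries in the model. By edgeR's quasi-likelihood test on all 6 libraries with Benjamini-Hochberg adjustment, 0 of 78 genes passed an adjusted p of 0.05 (lowest adjusted p = 0.337), as did 0% of all 13455 genes. At an unadjusted p under 0.05, 76 were lower, against 6.09% of all genes, and by DESeq2 70 were lower at an adjusted p under 0.05, against 2.75% of all genes. With only the 4 libraries of these 2 breeds in the edgeR model, all 77 genes tested there passed as lower in Kedah-Kelantan, against 10.2% of all genes. Dropping either Holstein Friesian library had the same effect on this comparison, in which Holstein Friesian takes no part: 77 genes passed as lower without replicate 1 (9.09% of all genes) and 77 without replicate 2 (9.62%). The median stayed at -1.27 in the 2-breed model. With 2 against 2 libraries, an exact permutation test of a single value cannot give a two-sided p below 0.333.

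Gene length moved with this comparison. Across the 13308 tested genes with a length, longer genes were higher in Kedah-Kelantan (Spearman rho 0.30 between length and log2 fold change, as a description across genes), and the ribosomal protein genes are short, with a median of 0.636 kb against 3.23 kb over all genes. Among the 78 members the same rho was 0.12. With the trend of fold change on length subtracted, an alternative chosen after seeing the data, 77 of 78 genes were still on the lower side and the median was -0.69. The exception was RPS27L, at 0.17. The part of transcript length or RNA quality in the result was not tested.

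Brangus against Holstein Friesian went the other way, with Brangus higher. All 78 genes were higher in Brangus in the fitted values, with a median log2 fold change of 0.87 where the median of all tested genes was -0.03. Both Brangus libraries lay above both Holstein Friesian libraries for 76 genes, as they did for 18.4% of all genes. The exceptions were RPL15 and RPL3L. In 76 of 78 genes both Brangus libraries lay above the other 4, a pattern found in 13.95% of all tested genes.

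RPS3A, a small subunit protein at the mRNA exit, had the largest difference. It had 8084 and 7434 CPM in Brangus and 4555 and 1592 CPM in Holstein Friesian (log2 fold change 1.34, SE 0.49). The change was 2.28 when Holstein Friesian replicate 1 was left out and 0.73 when replicate 2 was. RPL35A had 2413 and 2381 CPM in Brangus and 1470.4 and 641 CPM in Holstein Friesian (1.18, SE 0.41), with 1.90 without replicate 1 and 0.67 without replicate 2. In both genes Holstein Friesian replicate 2 lay farther from Brangus than replicate 1 did. The 2 Holstein Friesian libraries lay closer together at RPL3 and RPL28, and the errors were smaller there. RPL3 had 2797 and 2723 CPM in Brangus and 1605 and 1362 CPM in Holstein Friesian (0.90, SE 0.19), and RPL28, which sits at the surface of the large subunit, had 683 and 677 CPM in Brangus and 416 and 354 CPM in Holstein Friesian (0.82, SE 0.18). RPL10 was at 0.56 (SE 0.19), RPSA at 0.61 (SE 0.19) and RPS27L at 0.43 (SE 0.24), the last with 0.72 without Holstein Friesian replicate 1 and 0.16 without replicate 2.

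By edgeR 0 of 78 genes passed (lowest adjusted p = 0.641; 0.00743% of all genes passed). At an unadjusted p under 0.05, 65 were higher in Brangus, against 3.98% of all genes, and DESeq2 called 4 higher, against 1.1% of all genes: RPL3, RPL28, RPS19 and RPS12, the last named after its value was seen. Without Holstein Friesian replicate 1 the median was 1.30 and 77 genes passed edgeR's test as higher, against 14.5% of all genes. Without Holstein Friesian replicate 2 the median was 0.50 and 19 passed, against 4.36% of all genes. A single library then stands for Holstein Friesian and is assumed to vary as the other breeds do. With the length trend removed the median was 0.48.

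Kedah-Kelantan against Holstein Friesian gave no stable direction. In the fit of all 6 libraries all 78 genes were lower in Kedah-Kelantan, with a median log2 fold change of -0.40 against -0.03 over all genes. Yet only 10 genes had both Kedah-Kelantan libraries below both Holstein Friesian libraries, where 12.6% of all tested genes did. They included RPL3, RPL10, RPL23A, RPL27, RPS3, RPS12, RPS19, RPS27A and RPSA, of which RPS3, RPS12 and RPS27A are named after their values were seen. Without Holstein Friesian replicate 1 the median was 0.05, and 48 of 78 genes were higher in Kedah-Kelantan. Without replicate 2 it was -0.76, with 77 of 78 lower.

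RPL23A, which lines the exit of the nascent chain tunnel, had the largest difference, with 443 and 479 CPM in Kedah-Kelantan and 1514 and 725 CPM in Holstein Friesian (log2 fold change -1.28, SE 0.38). The change was -0.65 when Holstein Friesian replicate 1 was left out and -1.76 when replicate 2 was. With the counts of unnamed genes described as the same protein added, as set out below, RPL23A was at -0.72 (SE 0.39). RPL27 had 385 and 431 CPM in Kedah-Kelantan and 935 and 458 CPM in Holstein Friesian (-0.77, SE 0.35), with -0.17 without replicate 1 and -1.24 without replicate 2. RPL37A was at -0.72 (SE 0.45), with 0.13 and -1.28 under the same omissions. At RPL27 the lower Holstein Friesian library lay just above the higher Kedah-Kelantan one. RPL3 (-0.61, SE 0.19) and RPSA (-0.52, SE 0.19) had the smaller spread. At the small end RPS14 was at -0.09 (SE 0.25), RPL28 at -0.13 (SE 0.18) and RPL4, a large subunit protein whose extension reaches into the tunnel, at -0.16 (SE 0.28). These 3 were at 0.23, -0.01 and 0.26 when Holstein Friesian replicate 1 was left out, and at -0.40, -0.29 and -0.52 when replicate 2 was.

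By edgeR 0 of 78 genes passed (lowest adjusted p = 0.995; 0.00743% of all genes passed), 3 were lower at an unadjusted p under 0.05 (RPL3, RPL23A and RPSA, against 1.84% of all genes), and DESeq2 called 0, against 0.491% of all genes. Without Holstein Friesian replicate 1, 1 gene passed edgeR's test as higher in Kedah-Kelantan, RPS3A, against 6.8% of all genes, and 2 passed as lower, RPL3 and RPL23A, against 10.7%. Without replicate 2, 68 passed as lower, against 5.35% of all genes. With the length trend removed the median was -0.17, and 67 of 78 genes were on the lower side.

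**Figure D2:**
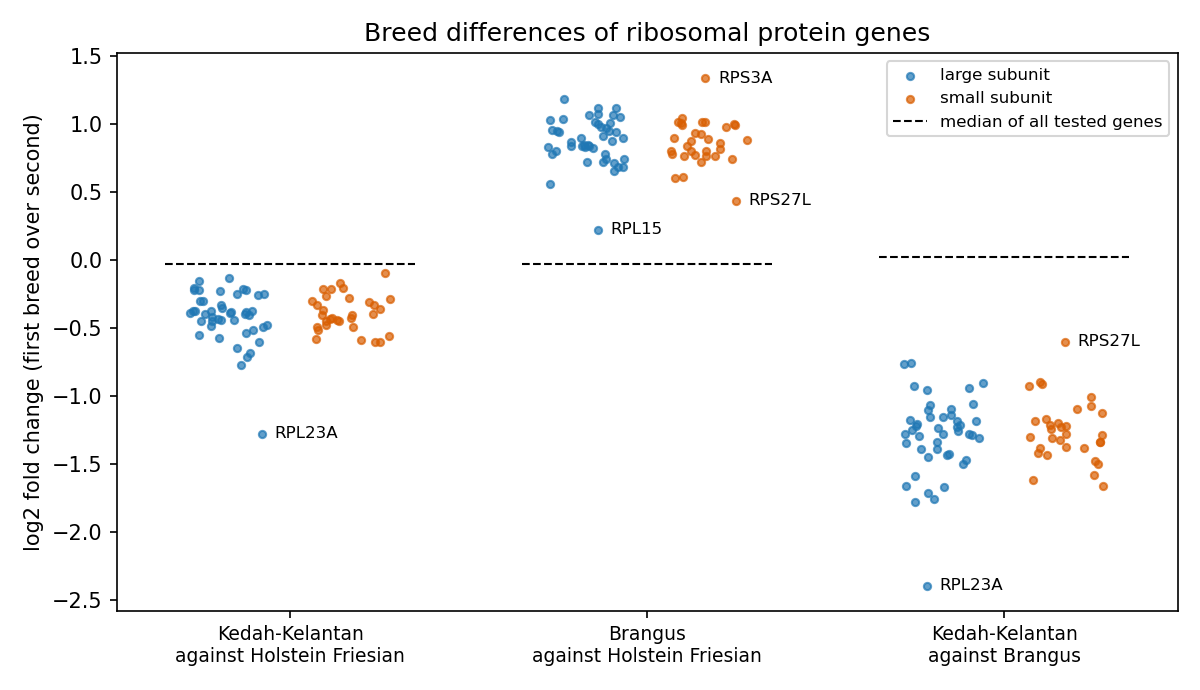
Each point is the log2 fold change of 1 ribosomal protein gene (RPL3L left out) in 1 of the 3 comparisons, first breed over second, with large subunit genes in blue, small subunit genes in orange and a dashed line at the median of all tested genes. In all 3 comparisons the whole family lies on 1 side of the dashed line, the 2 subunits lie at the same height, and RPL23A, RPL15, RPS3A and RPS27L sit at the edges.

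The Holstein Friesian libraries differed from each other across the family. All 77 genes with a count in every library were lower in replicate 2 than in replicate 1, with a median log2 difference of -0.81, from -1.52 for RPS3A to -0.22 for RPL10. The difference was over 2-fold for 19 of the 77 (24.7%), where it was for 29.9% of all genes. Between the Kedah-Kelantan replicates the median difference was 0.19, with 75 of 77 genes higher in replicate 2 and RPS6 and RPL10A the exceptions. Between the Brangus replicates it was 0.05. RPL11 shows the order: it had 710.1 and 739 CPM in Kedah-Kelantan, 1699 and 1711 CPM in Brangus, and 1246 and 656 CPM in Holstein Friesian. Holstein Friesian replicate 1 lay above both Kedah-Kelantan libraries in 77 of 78 genes, where it did in 39.1% of all tested genes. Replicate 2 lay above both in 11 (40.9% of all genes), between them in 32 (14.1% of all genes) and below both in 35 (45.0% of all genes). The share of the family below both, 44.9%, was that of all genes.

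The summed counts of the large and the small subunit kept nearly the same ratio. The ratio of large to small subunit counts was 1.29 and 1.29 in Kedah-Kelantan, 1.26 and 1.28 for Brangus, and 1.29 and 1.31 in Holstein Friesian. While the family's share of the reads differed more than 2-fold between libraries, this ratio stayed within 1.26 to 1.31. The median fold changes of the large and small subunit were -0.39 and -0.41 for Kedah-Kelantan against Holstein Friesian, 0.87 and 0.87 for Brangus against Holstein Friesian, and -1.26 and -1.29 for Kedah-Kelantan against Brangus. The medians of single genes parted in 1 library: on the log2 CPM scale the median large subunit gene lay 0.19 under the median small subunit gene in Holstein Friesian replicate 2, and 0.01 to 0.09 above it in the other 5. Large subunit genes were lower per length in every library. Their median was 1149.5 and 1223 FPKM in Kedah-Kelantan, 2379 and 2423 FPKM in Brangus, and 2005 and 975 FPKM in Holstein Friesian. Small subunit genes had medians of 1411 and 1472 FPKM, 2953 and 3026 FPKM, and 2401 and 1203 FPKM in the same breeds.

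Within each library most genes kept their place relative to the rest of the family. The distance of a gene from the median member was taken on the log2 CPM scale in each library, and its range over the 6 libraries measured how far the gene left the common pattern. RPL23 and RPS25 were the steadiest, with a range of 0.09. RPL23 had 1193 and 1326 CPM in Kedah-Kelantan, 3190.2 and 3418 CPM in Brangus, and 2215 and 1215 CPM in Holstein Friesian. It thus followed the median of the family in every library. RPL23A had the widest range, 1.16, ahead of RPS3A (0.96), RPS27L (0.82), RPL10 (0.78), RPL12 (0.77), RPL15 (0.76) and RPSA (0.71).

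**Figure D3:**
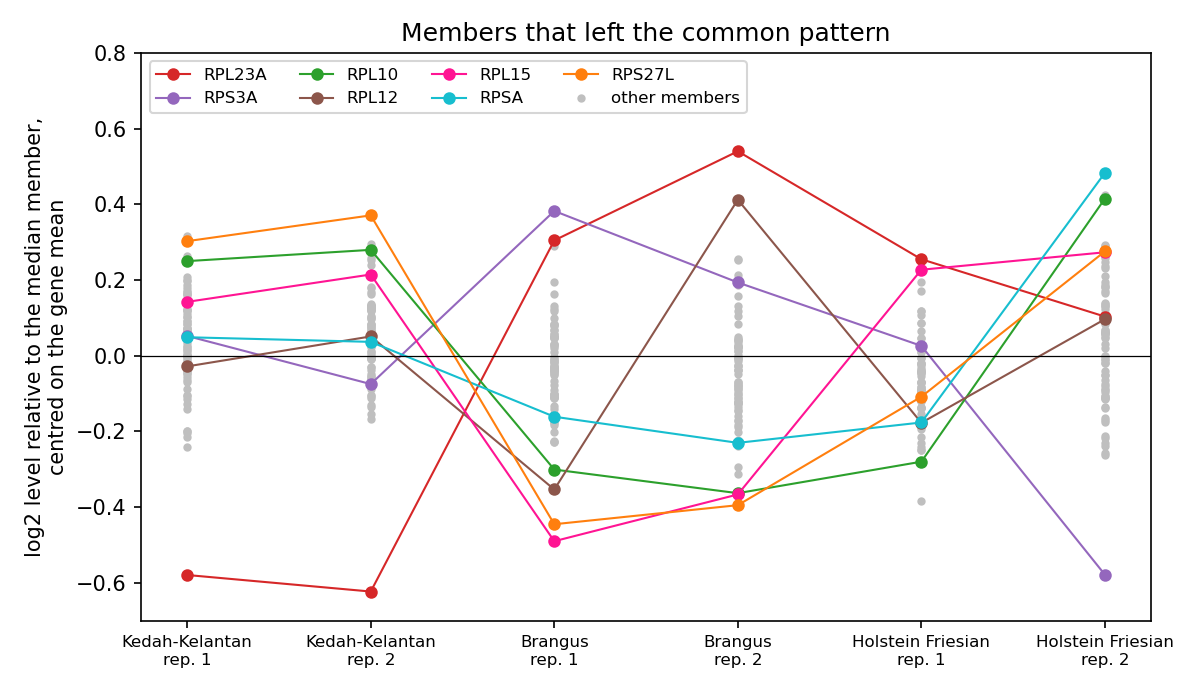
The log2 CPM of each gene relative to the median member of its library, centred on the mean of that gene over the 6 libraries, is plotted for 77 genes, with 7 wide-ranging genes joined by coloured lines and the others in grey. RPL23A is lowest in both Kedah-Kelantan libraries, RPL15 and RPS27L are lowest in Brangus, RPS3A is lowest in Holstein Friesian replicate 2, and RPL12 splits the 2 Brangus libraries.

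RPL12 and RPL10 differed in different ways. RPL12, a protein at the base of the stalk, had 278 and 327 CPM in Kedah-Kelantan, 589.8 and 1051 CPM in Brangus, and 481 and 309 CPM in Holstein Friesian. Its Brangus libraries held 13778 and 24477 counts, the widest split between the Brangus replicates among the 77 members with a count in every library, at 0.83 on the log2 scale. RPL10 was flatter than the family across all breeds, with 1594 and 1815 CPM in Kedah-Kelantan, 2893 and 2904 CPM in Brangus, and 2117 and 1822 CPM in Holstein Friesian. Both are named here as wide-ranging members, and RPL12 was chosen after its values were seen.

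Paralogues matched by the symbol rule were looked at apart. RPL3L, which replaces RPL3 in striated muscle, had 4 and 7 counts in Kedah-Kelantan libraries, 19 and 0 counts in Brangus libraries, and 0 and 12 counts in Holstein Friesian libraries. RPL10L, which replaces RPL10 in the testis, had 0 counts in all 6 libraries, and a count of 0 allows up to 3 counts per library. Neither can be compared between breeds at this depth. RPS27L, a p53-induced relative of RPS27, was expressed far below the rest, with 26.1 and 30.5 CPM in Kedah-Kelantan, 41.3 and 44.8 CPM in Brangus, and 37.6 and 26.1 CPM in Holstein Friesian. Its differences were smaller than the family's and changed sign with the length trend removed. Kedah-Kelantan against Brangus was at -0.61 (SE 0.24), where the family's median was -1.27. That distance from the median was over 3 times the scaled median absolute deviation of the members, as were those of RPL23A (2 comparisons with Kedah-Kelantan) and RPL15 (Brangus against Holstein Friesian, 0.22, SE 0.32). Leaving out Holstein Friesian replicate 1 put RPL15 at 0.71, and leaving out replicate 2 put it at -0.19.

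Several outlying members have near-namesakes elsewhere in the genome. The table holds 81 rows without a gene symbol (LOC identifiers) whose description names the same protein as one of 36 members, in the universal ribosomal nomenclature. Of these 28 passed the filter on low counts and 29 had no count at all. In sum they took only 0.124% to 0.221% of all counts. The read assignment settings that decide between a gene and a near-identical copy were not given in the labels or files, so the split between a member and its LOC row is uncertain.

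Counts were split between RPL23A and LOC132344467, described as an uL23-like protein, to a degree that set Kedah-Kelantan apart. The RPL23A gene lies on chromosome 19 (20145787 to 20148657, plus strand) and the LOC row on chromosome Y (7855783 to 7856319, plus strand) in the authors' table, which does not itself name a genome build. The LOC row took 45.5% and 47.4% of the counts of the pair in Kedah-Kelantan, 21.6% and 9.31% for Brangus, and 22.5% and 18.2% in Holstein Friesian. The widest Wilson 95% interval of these shares ran from 44.8% to 46.1%, and it covers counting error only. The Brangus and Holstein Friesian shares overlapped. The row held 4242 to 13946 counts in libraries of cows, whereas SRY, DDX3Y, USP9Y and ZFY, genes of the same chromosome on either side of it in the case of DDX3Y and ZFY, had 0 counts in all 6.

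Adding the LOC rows to RPL23A brought it closer to the family. Its log2 fold change for Kedah-Kelantan against Brangus was -1.73 (SE 0.40), against -2.40 (SE 0.39) for the symbol alone. The summed gene still lay 0.47 below the median member. By edgeR on the summed counts its adjusted p was 0.351. For Kedah-Kelantan against Holstein Friesian the summed change was -0.72 (SE 0.39), against -1.28 (SE 0.38) for the symbol alone. The unadjusted p by edgeR there was 0.116 for the sum, against 0.0174 for the symbol alone. RPL23A and LOC132344467 together stood at 812 and 910.3 CPM in Kedah-Kelantan and 1954 and 886 CPM in Holstein Friesian, whose libraries lay on either side of the higher Kedah-Kelantan one.

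RPL15, a large subunit protein deep in the ribosomal RNA, had a LOC row that was nearly absent from 1 library. The RPL15 gene lies on chromosome 27 (42051427 to 42055370, minus strand) and LOC101903301, described as eL15-like, on chromosome 2 (92573933 to 92576102, minus strand). RPL15 itself had 719 and 843 CPM in Kedah-Kelantan, 1233 and 1408 CPM in Brangus, and 1463 and 803 CPM in Holstein Friesian, the only member besides RPL3L at which a Holstein Friesian library topped a Brangus one. Its LOC row took 17.9% and 18.8% of the pair in Kedah-Kelantan, 35.4% and 23.4% for Brangus, and 0.597% and 12.6% in Holstein Friesian. With the rows summed, Kedah-Kelantan against Brangus was -0.97 (SE 0.28), against -0.76 for the symbol alone. RPL15 and LOC101903301 together stood at 1907 and 1838 CPM in Brangus and 1471 and 919 CPM in Holstein Friesian, so that in the sum both Brangus libraries lay above both Holstein Friesian libraries.

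The LOC rows of RPS3A and RPS23 also differed between animals of 1 breed. The RPS3A gene lies on chromosome 17 (6717403 to 6722090, minus strand) and LOC132344361, described as eS1-like and named after its values were seen, on chromosome X (119014543 to 119015403, plus strand). That row took 13.7% and 14.9% of the pair in Kedah-Kelantan, 0.719% and 8.38% for Brangus, and 16.1% and 28.3% in Holstein Friesian. The 2 Brangus libraries, apart at the row, lay at 8143 and 8114 CPM in the sum. RPS23, a protein of the decoding centre, was paired with LOC100336029, a uS12 row on an unplaced sequence. The row took 0.467% and 0.498% in Kedah-Kelantan, 6.82% and 2.87% for Brangus, and 0.174% and 4.49% in Holstein Friesian.

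**Figure D4:**
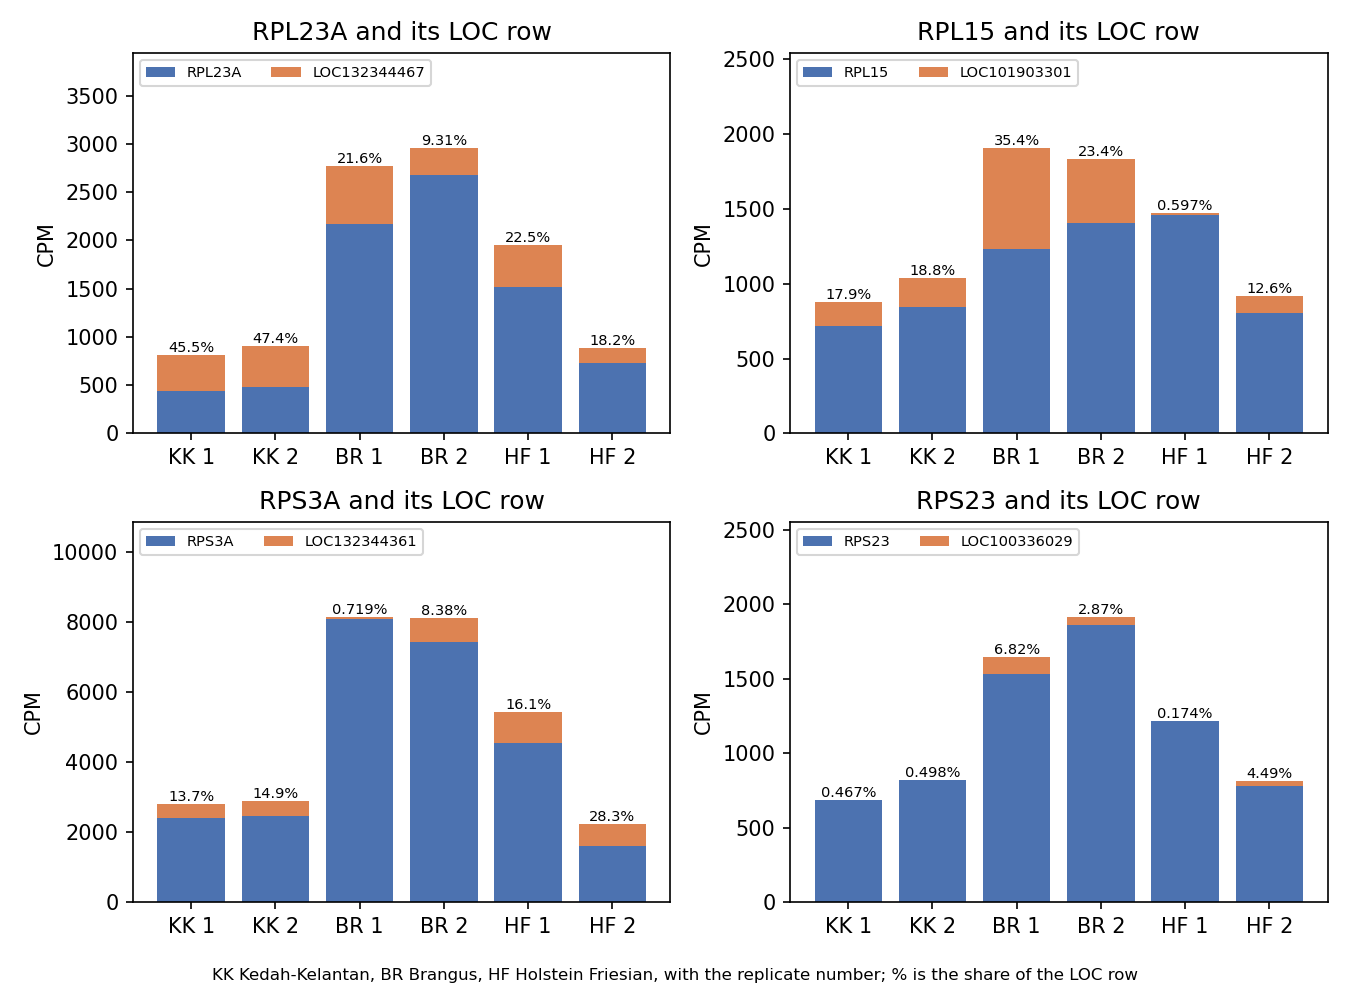
Stacked bars give the CPM of RPL23A, RPL15, RPS3A and RPS23 (blue) and of the LOC row described as the same protein (orange) in each library, with the share of the LOC row in percent above each bar. The orange share is largest for RPL23A in Kedah-Kelantan (45.5% and 47.4%) and nearly absent for RPL15 in Holstein Friesian replicate 1 (0.597%).

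By edgeR on all 6 libraries 0 of the 28 tested LOC rows passed in any comparison. In Kedah-Kelantan against Brangus 8 were lower at an unadjusted p under 0.05, against 6.09% of all genes, and DESeq2 called 4 lower, against 2.75%, with a median log2 fold change of -0.77 over the rows. In Brangus against Holstein Friesian 3 were higher at an unadjusted p under 0.05, against 3.98% of all genes, and DESeq2 called 1 higher, against 1.1%. The median there was 0.65, with 0.76 without Holstein Friesian replicate 1 and 0.64 without replicate 2. In Kedah-Kelantan against Holstein Friesian both counts were 0, against 1.84% and 0.491% of all genes on the lower side. The median in that comparison was -0.07, with 0.14 and 0.06 under the same omissions. The row with the largest change was LOC100336029, at -4.51 (SE 1.36) for Kedah-Kelantan against Brangus, where Kedah-Kelantan had 100 and 126 counts, against 2619 and 1280 for Brangus. LOC613519, described as uL3-like, was at -1.78 (SE 0.49) and never took over 0.398% of its counts summed with those of RPL3. The named rows LOC112441655, LOC132343301 and LOC784052 (eL39, eL21-like and eS26-like), had 0 to 36 counts per library.

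Other translation genes had smaller median differences between Kedah-Kelantan and Brangus than the ribosomal proteins. These medians were taken without removing the length trend. With that trend removed the ribosomal median was -0.69, and the part of length in this ranking was not tested. Among ribosome genes outside the symbol rule, 8 of 8 were lower in Kedah-Kelantan than in Brangus, with a median of -0.92, and 5 of them were lower at an unadjusted p under 0.05, against 6.09% of all genes. RPL36AL, a paralogue of RPL36A, was at -1.03 (SE 0.22). In Brangus against Holstein Friesian the 8 were all higher, with a median of 0.53, at 0.84 when Holstein Friesian replicate 1 was left out and 0.28 when replicate 2 was. In Kedah-Kelantan against Holstein Friesian 7 were lower, with a median of -0.38, and of 0.02 and -0.62 under the same omissions.

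Genes of translation elongation and other TOP mRNAs lay on the same side. In Kedah-Kelantan against Brangus 16 of 17 were lower, with a median of -0.77, and 11 were lower at an unadjusted p under 0.05, against 6.09% of all genes. TPT1, a growth-related TOP mRNA, averaged 4168 ± 413 CPM in Kedah-Kelantan and 10089.9 ± 174 CPM in Brangus (SD, n = 2 each; -1.28, SE 0.23), as large as the ribosomal median. EEF1A1, which brings aminoacyl-tRNA to the ribosome, was at -0.85 (SE 0.26), EEF1D at -1.07 (SE 0.23) and EIF3H at -0.77 (SE 0.18). The median of the 17 genes was 0.38 for Brangus against Holstein Friesian, with 0.61 without Holstein Friesian replicate 1 and 0.36 without replicate 2. For Kedah-Kelantan against Holstein Friesian it was -0.27, with -0.07 and -0.42. VIM, the intermediate filament gene on that list, was the exception in Kedah-Kelantan against Brangus, at 0.03 (SE 0.84).

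Genes that build ribosomes were nearer to the other genes. Of 30 ribosome biogenesis genes, 22 were lower in Kedah-Kelantan than in Brangus, with a median of -0.22, and 5 were lower at an unadjusted p under 0.05, against 6.09% of all genes. GNL3 was at -0.66 (SE 0.22), RRS1 at -0.69 (SE 0.25) and NOP10, of the pseudouridylation complex, at -0.60 (SE 0.16), while RIOK1, a kinase of small subunit maturation, was at 0.29 (SE 0.19). The median was 0.29 for Brangus against Holstein Friesian, with 0.61 without Holstein Friesian replicate 1 and 0.03 without replicate 2. For Kedah-Kelantan against Holstein Friesian it was -0.03, with 0.24 and -0.30. Of 13 genes that control TOP mRNA translation, 10 were higher in Kedah-Kelantan than in Brangus, with a median of 0.31. At an unadjusted p under 0.05, 2 were higher, as were 745 of all 13455 tested genes. Longer genes tended to be higher in this comparison, and the part of length in this list was not tested. TSC1 and TSC2, which together restrain mTOR, were at 0.60 (SE 0.19) and 0.63 (SE 0.22), and RPS6KB1, the S6 kinase, was at 0.39 (SE 0.20). LARP4 was at -0.01 (SE 0.17). The median of the control genes was -0.31 for Brangus against Holstein Friesian, with -0.40 without Holstein Friesian replicate 1 and -0.05 without replicate 2. For Kedah-Kelantan against Holstein Friesian it was 0.08, with 0.09 and 0.29. By edgeR on all 6 libraries 0 genes of these 4 lists passed an adjusted p of 0.05 in any comparison. In Kedah-Kelantan against Brangus DESeq2 called 4 of the ribosome genes outside the rule, 10 of the elongation and TOP genes, 1 biogenesis gene and 0 of the control genes, all lower, against 2.75% of all genes. It called 0 in the other comparisons. Of all genes it called 1.1% higher in Brangus against Holstein Friesian and 0.491% lower in Kedah-Kelantan against Holstein Friesian.

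Markers of blood cell types moved between the same libraries. Platelet markers summed to 298 and 345 CPM in Kedah-Kelantan, 1280.0 and 1407 CPM in Brangus, and 417 and 547 CPM in Holstein Friesian, with 8 of 9 counted in every library. Red cell markers summed to 152 and 189 CPM, 454 and 648 CPM, and 104 and 238 CPM in the same order, with 5 of 12 counted in every library. Both lists were highest in Brangus, as the ribosomal proteins were. All 10 B cell markers were counted in every library and summed to 1924 and 2046.5 CPM, 3205 and 2700 CPM, and 3141 and 237 CPM. All 8 monocyte markers were counted in every library, at 1341 and 1531 CPM, 1082 and 1093 CPM, and 425.5 and 7004 CPM. Neutrophil markers, 8 of 10 counted in every library, were at 1409 and 1494 CPM, 1672 and 2707 CPM, and 377.5 and 5171 CPM. Holstein Friesian replicate 2 combined the fewest B cell markers, the most monocyte and neutrophil markers and a low ribosomal share, 6.47%. The Kedah-Kelantan libraries also had low shares, 7.51% and 8.26%. Their sums for these 3 cell types lay between those of the 2 Holstein Friesian libraries.

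T cell markers differed little, from 2868 CPM in Kedah-Kelantan replicate 1 to 3929 CPM in Holstein Friesian replicate 1. NK cell markers were at 704 and 780 CPM in Kedah-Kelantan, 271 and 369 CPM in Brangus, and 714 and 351 CPM in Holstein Friesian, with all 9 of the list counted in every library. Gamma delta T cell markers, all 8 counted and 1 of them, BLK, also on the B cell list, ranged from 118 CPM in Holstein Friesian replicate 2 to 355 CPM in replicate 1. Eosinophil, basophil and mast cell markers, of which 2 of 6 were counted in every library, were at 261 and 270 CPM in Kedah-Kelantan, 38.7 and 36.5 CPM in Brangus, and 33.4 and 676 CPM in Holstein Friesian. The part of cell composition in the breed differences of the ribosomal protein genes was not tested.

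**Figure D5:**
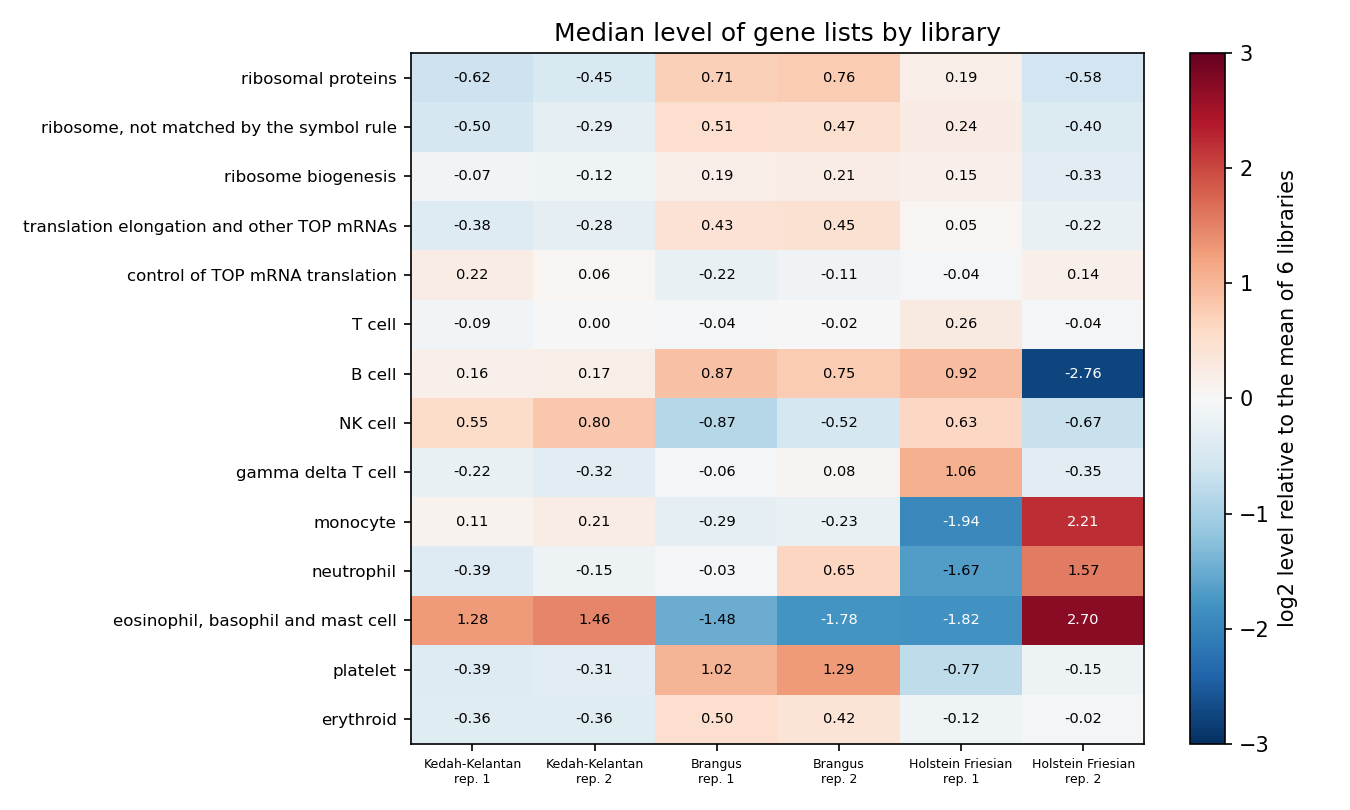
Rows are the ribosomal proteins, 4 lists of translation genes and 9 lists of blood cell markers, columns are the 6 libraries, and each cell gives the median over the list of the log2 level relative to the mean of that gene over the libraries. The ribosomal protein row is at 0.71 and 0.76 in Brangus and below 0 in both Kedah-Kelantan libraries and Holstein Friesian replicate 2, and the platelet row is highest in Brangus too.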

How the data were processed

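Whole blood RNA was extracted with PrimeZOL, and samples needed an RNA integrity number above 7.0, per the labels' protocols. Trimmomatic 0.39, FastQC 0.11.9, featureCounts 2.0.1 and HISAT2 2.2.1, with build ARS-UCD1.2 and DESeq2 1.38.0, are named in the submitters' processing notes. The strand setting and the treatment of multi-mapping reads were not given there, so overlapping or near-identical genes may share reads. The deposited table holds whole-number counts per gene, and the authors' FPKM values equal count over a constant gene length and the library total to within 0.0658%, from which lengths were taken. Positions are those of the authors' table, which names no build, so they may not be positions of ARS-UCD1.2.

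Genes passing edgeR's filterByExpr by breed (13455) were fitted with edgeR 4.0.16 (R 4.3.3): TMM scaling, quasi-likelihood with robust dispersion, 1 mean per breed, all 6 libraries, and 3 residual degrees of freedom. Benjamini-Hochberg adjustment ran over all tested genes, with a threshold of 0.05. A common biological coefficient of variation of 0.431 limits the precision more than depth. DESeq2 1.42.0 was the alternative test, and the scripts were tested on simulated data. Other alternatives were scaling, filters, samples, the LOC rows and leaving out each library. The length trend was a lowess fit (statsmodels). List levels used a pseudocount of 0.5 CPM. Named genes were the members with extreme fold changes, smallest p, extreme FPKM or deviations over 3 scaled median absolute deviations, paralogues, stalk and assembly landmarks, and the leading LOC rows and list genes. Members and lists were chosen with earlier results of these data known. Of the 79 members 77 matched the reference gene table by symbol. Sequences were not used here. Values of some single genes are not reported here.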

Additional observations from a re-analysis of the deposited data

How the results depend on the processing

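The number of ribosomal protein genes passing edgeR's adjusted p, 0 in each comparison, changed with the libraries and the tool. Leaving out 1 library at a time gave 0 to 68 for Kedah-Kelantan against Holstein Friesian, 0 to 77 for Brangus against Holstein Friesian and 0 to 77 for Kedah-Kelantan against Brangus. Only the omission of a Holstein Friesian library gave any, and the cause was not tested. DESeq2 gave 4 for Brangus against Holstein Friesian and 70 for Kedah-Kelantan against Brangus, and the 2-breed model gave 77 for Kedah-Kelantan against Brangus. Other scalings, no low-count filter, a mean count of at least 50 and adding the LOC rows left 0 in all 3 comparisons.

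Medians over 1 library left out ranged from -0.76 to 0.05, from 0.50 to 1.30 and from -1.34 to -1.20 in the same order. Medians of the translation lists and LOC rows without a Holstein Friesian library were added after seeing the data. With the gene length trend removed, also chosen after seeing the data, the median of Kedah-Kelantan against Brangus was -0.69. Among the genes named by the rule 7 values changed sign: for Kedah-Kelantan against Holstein Friesian RPL10 was 0.01, RPL28 0.10, RPLP2 0.07, RPS14 0.12 and RPS27L 0.12, for Brangus against Holstein Friesian RPS27L was -0.07, and for Kedah-Kelantan against Brangus RPS27L was 0.17; the cause was not tested.

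Of the genes named by the rule, those whose leave-one-out ranges crossed 0 for Kedah-Kelantan against Holstein Friesian were RPL11 -0.82 to 0.14, RPL23 -0.86 to 0.05, RPL35A -1.10 to 0.14, RPL37 -1.05 to 0.11, RPL37A -1.28 to 0.13, RPL38 -0.81 to 0.16, RPL4 -0.52 to 0.26, RPL5 -0.64 to 0.33, RPLP0 -0.46 to 0.02, RPLP1 -0.73 to 0.02, RPLP2 -0.48 to 0.03, RPS14 -0.40 to 0.23, RPS15 -1.03 to 0.06, RPS15A -0.96 to 0.13, RPS21 -0.76 to 0.09, RPS27L -0.45 to 0.12, RPS3A -0.94 to 0.62 and RPS6 -0.80 to 0.07, each turned by omitting Holstein Friesian replicate 1. RPL15 in Brangus against Holstein Friesian ranged from -0.19 to 0.71. RPL3L, whose fitted values depend on the prior count because of its zeros, ranged from -1.33 to 5.33, from -5.72 to 6.50 and from -2.16 to 5.35 in the 3 comparisons.

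The replicate numbers did not pair the libraries: deviations of same-numbered libraries correlated at -0.002 to 0.054. With the replicate number as a block, 0 genes passed in each comparison and the medians were -0.37, 0.90 and -1.27. With 2 libraries per breed, a difference within the spread of the Holstein Friesian libraries was not detectable.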
